A study of Pseudotaxus chienii with 9 samples.

Results

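Germin-like proteins were represented by 57 of the 26827 genes in the deposited table, chosen because their description contains the word germin and is not about germination. The material was leaf tissue of the white-berry yew, Pseudotaxus chienii, a conifer, and the assay was sequencing of polyA RNA. The 9 libraries fall into 3 groups of 3: CK, the label of leaves with no hormone named, and leaves given methyl jasmonate (MeJA, a volatile hormone of wounding and defence) for 1 day or for 2 days. The labels name no mock treatment, no dose, no sampling time for CK and no separate plants, so the p-values below rest only on how the libraries of a group differ, and that spread could be technical. Of the 57 genes, 34 lie on chromosome 7, 16 on chromosome 4 and the others on chromosomes 1, 5, 8, 9 and 10.

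Germins and germin-like proteins are secreted glycoproteins of the plant cell wall. They belong to the cupin superfamily, whose members fold into a beta barrel that binds a metal, manganese in barley germin. The germin of wheat and barley is an oxalate oxidase that releases hydrogen peroxide, and several germin-like proteins of other species act as superoxide dismutases. Genes of the family often stand in tandem arrays, and in rice such an array contributes to resistance to blast fungus. In pines germin-like transcripts are known from embryogenic tissue. The names used here come from sequence matches to other species, and the enzyme activity of the Pseudotaxus proteins is not known from these data. All 57 genes carried the terms cell wall and oxalate decarboxylase activity in the authors' annotation, which 924 and 62 genes of the table carried. The term regulation of root development was carried by 39 of the 57, and by 53 genes of the table. All 34 on chromosome 7 were among the 39.

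The libraries held 48893949 to 58703021 counts, and day 1 library 2 and day 2 library 2 stood apart from the rest. A list of 13 leaf photosynthesis genes (mostly chlorophyll-binding antenna proteins) summed to 10073 to 12478 FPKM in CK and to 3929 to 7451 FPKM in 4 of the treated libraries, but to 880 FPKM in day 1 library 2 and 698 FPKM in day 2 library 2. FPKM is the fragment count scaled for transcript length and library size, and none of these 13 genes was at 0 in all libraries. Genes at 1 FPKM or more in a single library, and at least 10 times the highest of the other 8, numbered 240 for day 1 library 2, 97 for day 2 library 2 and 0 to 17 for each of the others. Day 1 fold changes that rest on day 1 library 2 are given with and without it.

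**Figure D1:**
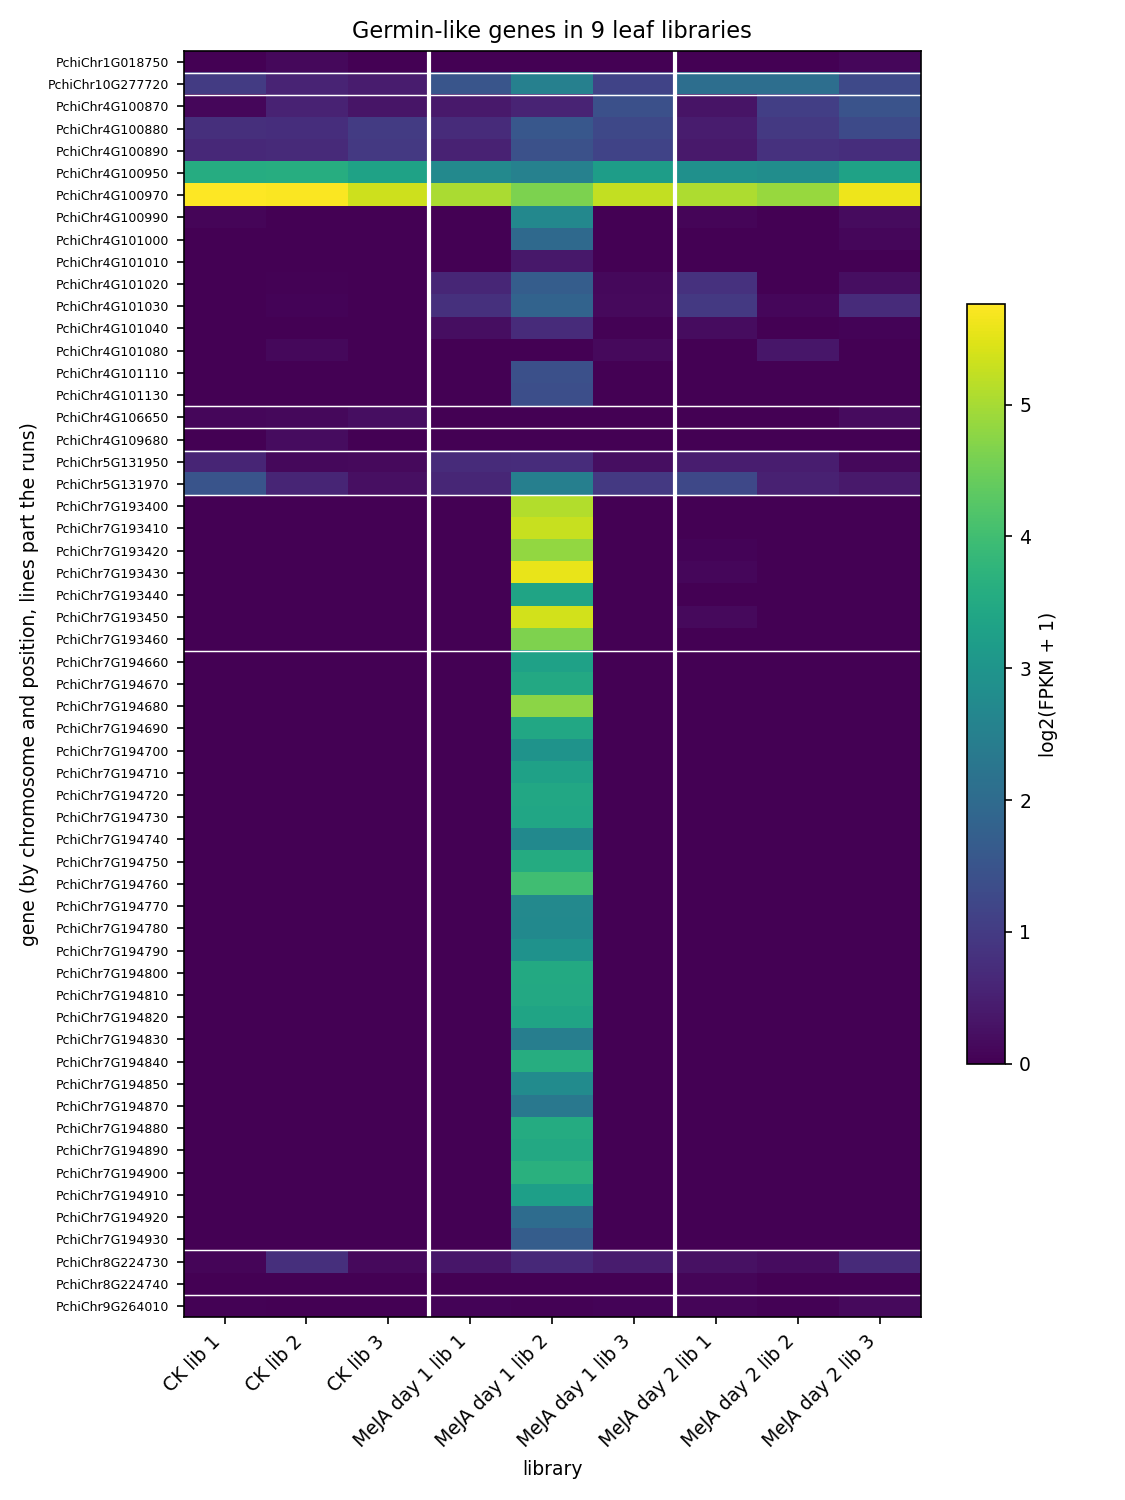
Level of the 57 germin-like genes (rows, by chromosome and position, lines parting the genomic runs) in the 9 libraries (columns), as log2(FPKM + 1). PchiChr4G100950 and PchiChr4G100970 are bright in all 9 libraries, and the 34 chromosome 7 genes are bright in day 1 library 2 alone.

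The family's level in most libraries came from 2 neighbouring genes on chromosome 4, while in day 1 library 2 it came from chromosome 7. Summed over all 57 genes, the level was 69.1, 67.0 and 51.4 FPKM in CK libraries 1, 2 and 3. It was 43.5, 520 and 52.4 FPKM in day 1 libraries 1, 2 and 3, and 47.1, 41.7 and 65.0 FPKM in the day 2 libraries. The chromosome 7 genes made up 88.3% of the sum in day 1 library 2, and at most 0.464% in any of the other 8 libraries. The chromosome 4 pair made up 92.9% to 94.0% of the sum in CK, 82.3% to 88.1% in the treated libraries other than day 1 library 2, and 5.50% in that library. Since these are bulk leaf samples, a change in the cells that hold a transcript and a change in its amount per cell cannot be told apart.

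**Figure D2:**
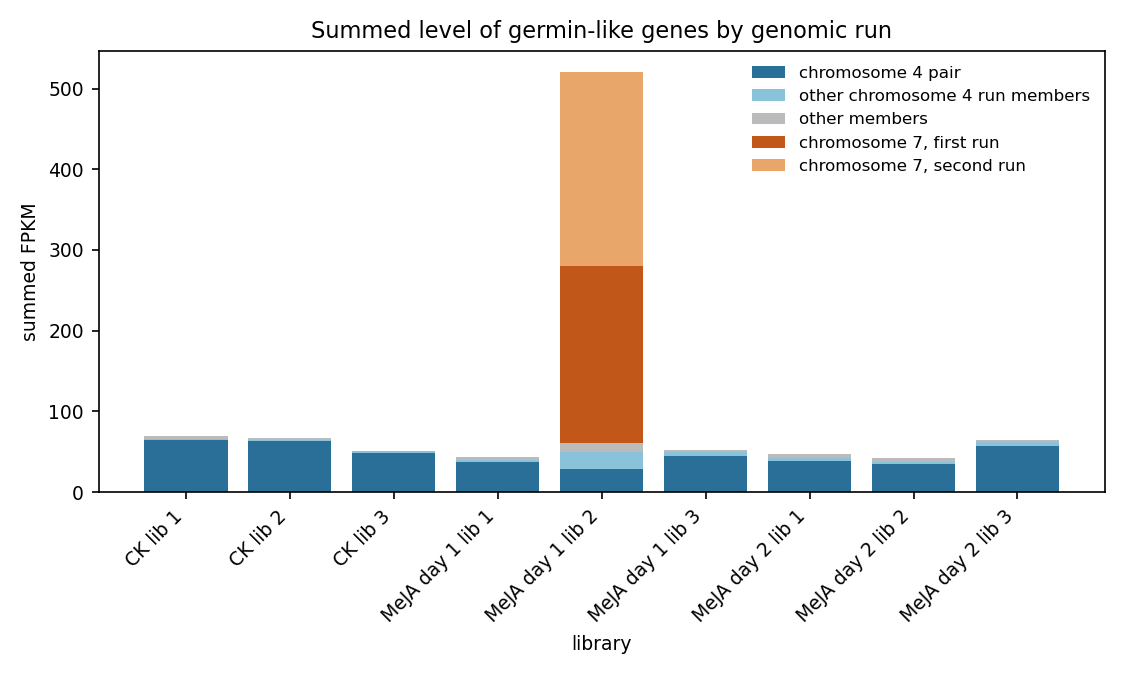
Summed FPKM of the germin-like genes in each library, stacked by genomic position: the chromosome 4 pair, the 12 other members of that run, members elsewhere, and the 2 runs on chromosome 7. The bar of day 1 library 2 reaches 520 FPKM, of which 459 FPKM is chromosome 7, and the other bars lie between 41.7 and 69.1 FPKM.

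The 34 chromosome 7 genes form 2 uninterrupted arrays. The first holds 7 genes, all on the plus strand, from 63266230 to 63674421 in block 1 of the chromosome, a span of 408 kb. The second holds 27 genes, all on the minus strand, from 115999600 to 117016971 in the same block, a span of 1017 kb. No other gene of the table lies within either array, and the gaps between neighbours have medians of 33.3 kb in the first and 19.9 kb in the second. The gene models are short, 788 bp from start to end in 11 of the 34 copies, with a longest of 24132 bp (PchiChr7G194870). By description 31 of the 34 match germin-like protein 2-1 of Amborella trichopoda, and the other 3 match an isoform of the same name in pumpkin or in a cinnamon relative.

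In day 1 library 2 every chromosome 7 copy was assigned reads, with levels from 2.24 FPKM (PchiChr7G194930) to 46.9 FPKM (PchiChr7G193430), with a median of 9.96 FPKM. In the other 8 libraries 30 of the 34 copies had 0 counts, which allows up to 3 counts per gene over those libraries (counting error only). The other 4 copies had 17 counts between them, 14 in day 2 library 1 and 3 in day 1 library 1, against 24245 counts for the array genes in day 1 library 2. Scaled to library totals this is a 11507-fold difference (95% exact interval 7186 to 19757, counting error only). The low counts behave as estimates rounded up, and 1 library stands against 8, so the fold and its interval are rough. The summed 459 FPKM would rank below 133 single genes of that library. These values chose the split of the family and are a description of that library, with no test.

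The first array had the higher levels per copy in that library. Its 7 copies were at 33.2, 37.7, 27.5, 46.9, 9.33, 40.1 and 23.9 FPKM in order along the chromosome, and the 27 copies of the second array ran from 2.24 to 26.1 FPKM with a median of 9.30 FPKM. The highest copy of the second array was PchiChr7G194680, with 26.1 FPKM, followed by PchiChr7G194760, with 15.0 FPKM. The 2 copies at the far end of the second array, PchiChr7G194920 and PchiChr7G194930, were its lowest, with 3.09 and 2.24 FPKM. The 4 copies with any count elsewhere (PchiChr7G193420, PchiChr7G193430, PchiChr7G193450 and PchiChr7G193460) all lie in the first array. PchiChr7G193450, the highest of them outside day 1 library 2, was at 0.104 FPKM in day 2 library 1. Copies of like sequence can share reads, so the value of a single copy is uncertain. The sums were 219 FPKM for the first array and 241 FPKM for the second.

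**Figure D3:**
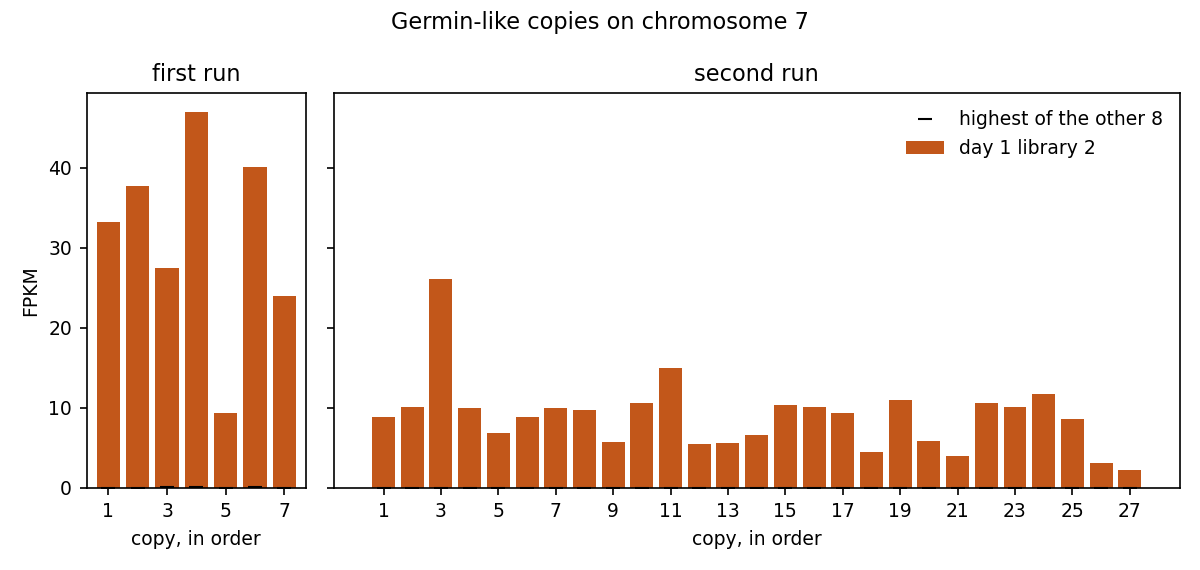
FPKM of each chromosome 7 copy in day 1 library 2 (bars), in order along the first array of 7 genes and the second of 27 genes, with the highest value among the other 8 libraries as a black dash. The first array reaches 46.9 FPKM and the second 26.1 FPKM, and the dashes stay at or below 0.104 FPKM.

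A level of 1 FPKM or more in day 1 library 2, and of 10 times any other library, was met by 240 genes of the table (0.895%), and by 38 of the 57 germin-like genes. At 3 times any other library the rule took in 2.88% of all genes and the same number of members. These 38 were 66.7% of the family and 15.8% of the 240 genes. The chromosome 7 copies were set apart for being seen in this library. The shares and the order of series below thus describe the library and are no test of enrichment. The 38 were all 34 chromosome 7 copies and 4 on chromosome 4. Sorted by position, the array of 27 was the longest unbroken series of such genes in the table, ahead of 16 genes beginning with a cytochrome P450 described as CYP867B5, also on chromosome 7, and the array of 7 was the third. Of the 10 genes flanking each array, 5 on each side, 0 met the rule. The nearest gene before the first array, PchiChr7G193390 (described only as unknown), was at 14.9 FPKM in day 1 library 2 and at 0.239 to 1.50 FPKM in the other libraries.

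Other markers moved in day 1 library 2 as well, and their part in the chromosome 7 values was not tested. The low photosynthesis sum was shared with day 2 library 2, in which all 34 copies were at 0 counts. Genes named for pollen, anther, tapetum or male sterility, 37 in the table, summed to 334 to 529 FPKM in CK, 2834 FPKM in day 1 library 2, 2540 FPKM in day 2 library 1 and 852 to 1087 FPKM in the other treated libraries. Genes named for wood and secondary wall (31, of which 24 are laccases) summed to 40.4 to 51.2 FPKM in CK, 194 FPKM in day 1 library 2 and 106 to 139 FPKM in the other treated libraries. A list of 25 laccases and ascorbate oxidases, which takes in these laccases, summed to 116 FPKM in day 1 library 2 and at most 19.8 FPKM elsewhere. The wood sum in day 1 library 2 therefore does not speak for the wood genes other than laccases. Genes named for seed and embryo (11) summed to 236 FPKM in day 1 library 2 and to 90.5 to 151 FPKM in the other 8 libraries, with both vicilin-like storage proteins near 0. Genes with root in their name (18) ranged only from 138 to 178 FPKM. The list for fungal, viral or insect proteins (53 genes, 697 FPKM in day 1 library 2 and 658 to 1688 FPKM elsewhere) says little of other organisms, since 51 of its genes are named for retrovirus-related transposons or for an insecticidal toxin.

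Outside chromosome 7 the pair on chromosome 4 was the only part of the family at 1 FPKM or more in all 9 libraries, a level that 52.3% of all genes reached. The nearest members below that level were PchiChr4G100880 and PchiChr10G277720, with lowest values of 0.363 and 0.360 FPKM. Both genes of the pair match germin-like protein of Pinus radiata. PchiChr4G100970 (chromosome 4, block 1, plus strand, 161864871 to 161868408) was at 53.3, 51.9 and 39.2 FPKM in CK libraries 1 to 3, at 31.8, 23.8 and 36.9 FPKM in the day 1 libraries and at 32.4, 28.2 and 48.4 FPKM in the day 2 libraries. All 3 day 1 libraries lay below all CK libraries, and day 2 library 3 lay within the CK range. PchiChr4G100950 (161641741 to 161644101, plus strand) was at 10.9, 11.1 and 9.02 FPKM in CK, 5.54, 4.81 and 8.19 FPKM at day 1 and 6.40, 6.07 and 8.92 FPKM at day 2. All 6 treated libraries lay below all CK libraries.

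Neither gene of the pair passed the test. The log2 fold change of PchiChr4G100970 was -0.52 at day 1 (SE 0.22, edgeR adjusted p = 0.210) and -0.29 at day 2 (SE 0.22, edgeR adjusted p = 0.444). That of PchiChr4G100950 was -0.62 at day 1 (SE 0.27, edgeR adjusted p = 0.214), -0.42 at day 2 (SE 0.27, edgeR adjusted p = 0.370) and -0.52 for the mean of both days (SE 0.23, edgeR adjusted p = 0.178). Both estimates were negative in every alternative analysis, between -0.84 and -0.19. The level of PchiChr4G100970 was 4.35 to 5.73 times that of PchiChr4G100950 in each of the 9 libraries. Without day 1 library 2 the day 1 estimates were -0.41 and -0.52.

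**Figure D4:**
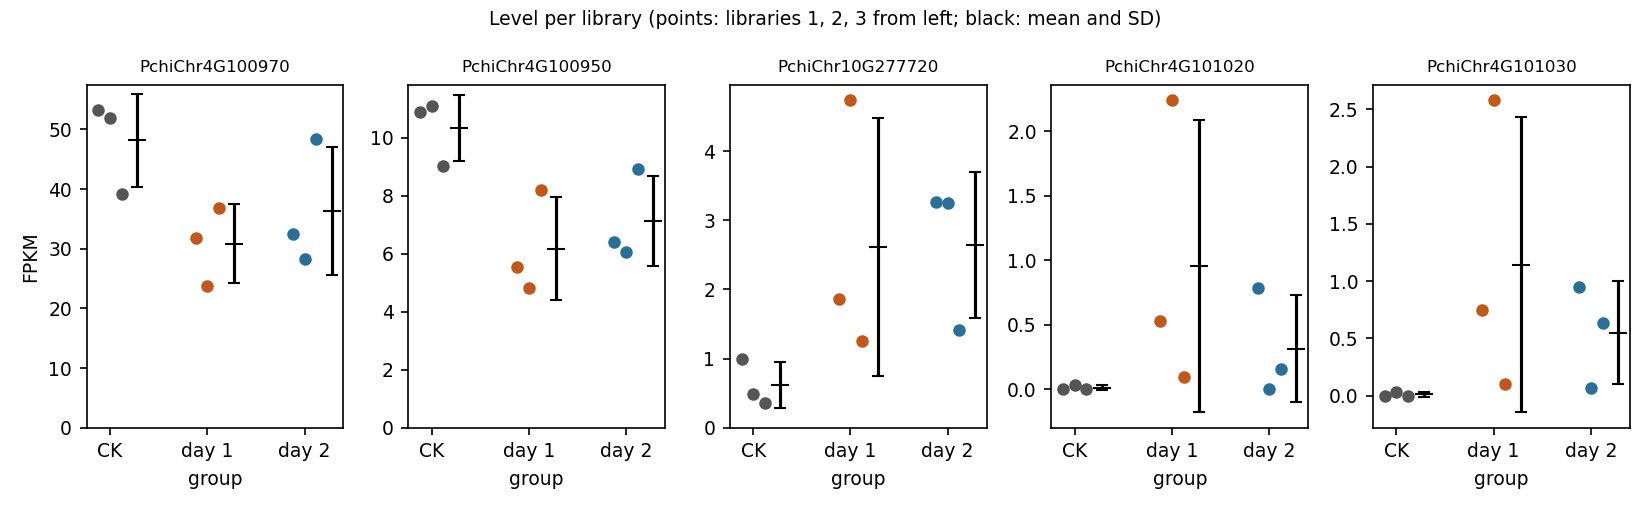
FPKM per library of 5 germin-like genes, with libraries 1, 2 and 3 of each group from left to right and the group mean ± SD in black. The chromosome 4 pair is highest in CK, while PchiChr10G277720, PchiChr4G101020 and PchiChr4G101030 are higher in most treated libraries, most of all in day 1 library 2.

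The chromosome 4 pair stands in a run of 14 germin-like genes from 158992575 to 164109639 in block 1, spread over 5117 kb with 7 other genes of the table between them. Unlike the arrays of chromosome 7 this run mixed strands (10 plus, 4 minus) and patterns. At its start PchiChr4G100870, PchiChr4G100880 and PchiChr4G100890, which match Pinus taeda, were low in all groups, with means of 0.263 to 0.802 FPKM in CK, 0.823 to 1.32 FPKM at day 1 and 0.589 to 1.04 FPKM at day 2. None of these 3 passed the test at either day (edgeR adjusted p = 0.261 to 0.918). The genes between them and the pair, and within the pair, were 3 named only unknown, an L-tryptophan--pyruvate aminotransferase and 1 without a description.

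Beyond the pair, 3 consecutive members had their highest value in day 1 library 2 and next to nothing in CK. PchiChr4G101030 (chromosome 4, block 1, plus strand, 163132606 to 163133256) was at 0, 0.0350 and 0 FPKM in CK, 0.746, 2.58 and 0.101 FPKM at day 1 and 0.949, 0.0661 and 0.635 FPKM at day 2. All 6 treated libraries lay above all CK libraries, but in part by very few counts. Day 2 library 2 had 3 counts and day 1 library 3 had 4, against 2 in CK library 2. In counts this was 135 over the day 1 libraries against 2 over CK, a 70.2-fold difference scaled to library totals (95% exact interval 19.1 to 586, counting error only), and 64 over the day 2 libraries, 33.4-fold (8.88 to 282). The spread within the treated groups was wide, and the gene did not pass at day 1 (log2 6.06, SE 1.73, edgeR adjusted p = 0.0848) or day 2 (log2 4.86, SE 1.67, edgeR adjusted p = 0.130). Without day 1 library 2 its day 1 estimate was 4.54 (edgeR adjusted p = 0.179) and its counts were 26.6-fold above CK (95% exact interval 6.81 to 228, counting error only). DESeq2 placed it past the threshold in all 3 comparisons with CK.

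Its neighbour PchiChr4G101020 was at 0, 0.0305 and 0 FPKM in CK, 0.528, 2.24 and 0.0955 FPKM at day 1 and 0.781, 0 and 0.156 FPKM at day 2. It followed the same order of libraries at the top (day 1 library 2, then day 2 library 1, then day 1 library 1) and did not pass (day 1 log2 5.99, SE 2.04, edgeR adjusted p = 0.130). Without day 1 library 2 the day 1 estimate was 4.31 (edgeR adjusted p = 0.286), and in counts 29 remained in the other 2 day 1 libraries, 22.7-fold above CK (95% exact interval 5.74 to 196, counting error only). DESeq2, with all libraries, placed it past the threshold at day 1 (adjusted p = 0.0189). PchiChr4G101040, on the other side, had 0 counts in CK and 41 over the day 1 libraries, at least 14.2-fold higher against a floor of 3 counts over CK, of which 31 were in day 1 library 2. Without that library the bound was 5.21-fold, from 10 counts. The gene was below the count filter and was not tested. Reads could have been shared between these 3 neighbours.

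A further 5 members of the run were almost confined to day 1 library 2 in their counts. PchiChr4G100990 was at 5.45 FPKM there and at most 0.125 FPKM elsewhere, PchiChr4G101000 at 2.91 FPKM and at most 0.0760 FPKM, and PchiChr4G101010 at 0.294 FPKM with 0 counts elsewhere. PchiChr4G101110 and PchiChr4G101130, the last 2 of the run with gene models of the same length (651 bp), were at 1.67 and 1.62 FPKM there and at 0 counts elsewhere. The gene before this group, PchiChr4G100980 (a hypothetical protein), followed the same pattern with 5.60 FPKM in day 1 library 2 and at most 0.174 FPKM elsewhere. The remaining member, PchiChr4G101080, was at 0 in day 1 library 2 and at most 0.270 FPKM in any library.

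PchiChr10G277720 was the member outside chromosome 4 whose treated libraries were all above CK. This gene (chromosome 10, block 1, minus strand, 71428734 to 71430757) is described as a germin-like protein 2 precursor. It was at 1.00, 0.496 and 0.360 FPKM in CK, 1.86, 4.74 and 1.25 FPKM at day 1 and 3.26, 3.25 and 1.42 FPKM at day 2. The groups did not overlap at either day, with counts of 25 to 74 per CK library and 84 to 325 per treated library. Its log2 fold change was 2.27 at day 1 (SE 0.69, edgeR adjusted p = 0.0994), 2.23 at day 2 (SE 0.69, edgeR adjusted p = 0.101) and 2.25 for the mean of both days (SE 0.64, edgeR adjusted p = 0.0670), so it did not pass. Without day 1 library 2 it was 1.42 at day 1 (edgeR adjusted p = 0.227) and 2.25 at day 2 (edgeR adjusted p = 0.0388), and DESeq2 placed it past the threshold in all 3 comparisons with CK.

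The other members were low. In the 3 of them that were tested, the log2 fold change was 0.61 to 1.49 at day 1 and -0.15 to 0.35 at day 2. PchiChr5G131970, named for subfamily T, was at 1.84, 0.516 and 0.185 FPKM in CK, 0.536, 4.65 and 0.956 FPKM at day 1 and 1.37, 0.453 and 0.306 FPKM at day 2, so its groups overlapped. Its day 1 estimate of 1.49 became -0.09 without day 1 library 2. Its neighbour PchiChr5G131950, named for subfamily 2, stayed between 0.0962 and 0.673 FPKM, and PchiChr8G224730 between 0.0538 and 0.705 FPKM. None of the 3 passed at either day (edgeR adjusted p = 0.416 to 0.947). PchiChr1G018750, PchiChr4G106650, PchiChr4G109680, PchiChr8G224740 and PchiChr9G264010 never exceeded 0.155 FPKM.

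Over the family, 0 of the 11 genes that passed the count filter were called in any comparison by edgeR. The background shares of called genes among the 22384 tested were 5.34% at day 1, 4.95% at day 2, 0% for day 2 against day 1 and 8.38% for the mean of both days against CK. By direction they were 4.34% higher and 1.00% lower at day 1, 4.09% and 0.858% at day 2, and 5.81% and 2.57% for the mean. At an unadjusted p under 0.05 there were 4, 2, 0 and 3 of the 11 in these comparisons, where the shares of all tested genes were 23.8%, 24.7%, 4.24% and 29.4%. DESeq2 called 3, 2, 0 and 3 of the 11, and 17.0%, 18.3%, 0.328% and 23.1% of all genes to which it gave an adjusted p. The 46 other members, all 34 of chromosome 7 among them, were too low or seen in too few libraries to be tested. Groups that did not overlap with CK were found for 3 genes in the higher direction at day 1 (background 13.5%) and 2 in the lower (23.5%), and for 2 higher (18.1%) and 1 lower (23.7%) at day 2. Over both days together 2 genes had every treated library above CK (background 10.4%) and 1 had every treated library below (16.9%). PchiChr4G101030 is among the 2, and its separation rests on counts of 3 and 4 against 2 in CK library 2. Between day 2 and day 1 the groups of all 11 overlapped, where 4.04% of all genes were higher and 2.84% lower without overlap. PchiChr4G101020 and PchiChr4G101030 passed the count filter only through treated libraries, with at most 2 counts in any CK library. Their higher treated level was thus partly built into their selection, and both enter the numbers above and the median. The median is therefore a description and no test of the family. The median log2 fold change of the 11 was 1.17 at day 1 and 0.32 at day 2, against 0.03 for all tested genes at both days. With 1 library left out it ran from 0.59 to 1.73 at day 1 and from 0.19 to 1.26 at day 2, with 11 or 12 members tested. The lowest day 1 median, 0.59, was without day 1 library 2, and the highest at both days, 1.73 and 1.26, were without CK library 1. Without CK library 2 the day 2 median was 1.10. The comparisons with CK share the same CK libraries, and day 1 and day 2 values are not independent of each other.

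**Figure D5:**
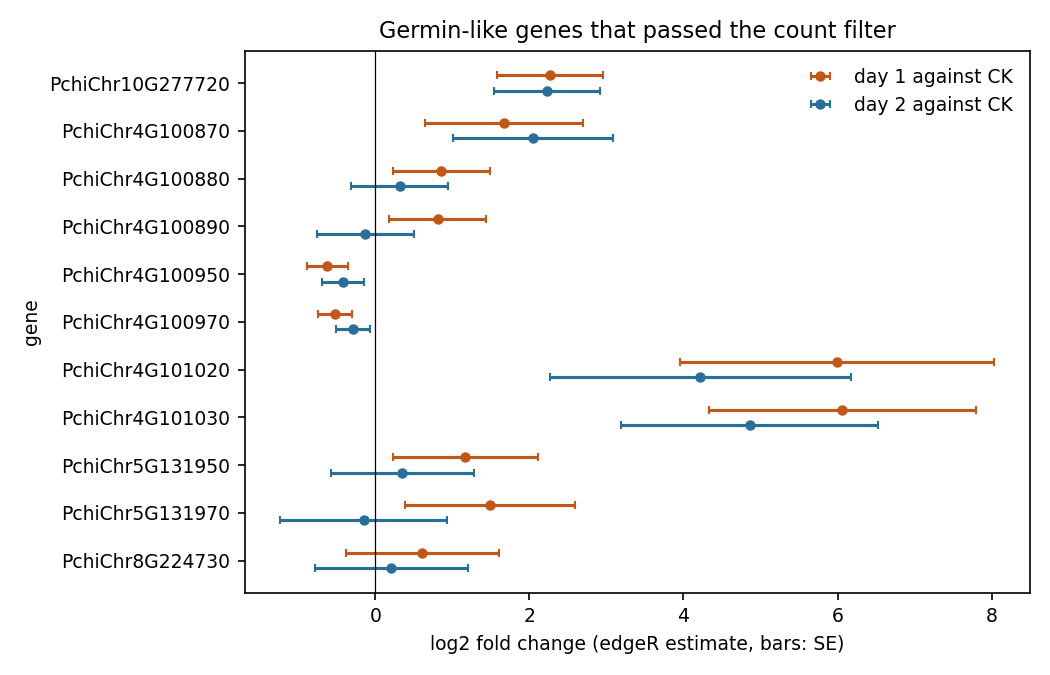
Log2 fold change (edgeR estimate, bars ± SE) of the 11 germin-like genes that passed the count filter, for day 1 and day 2 against CK. The chromosome 4 pair sits between -0.62 and -0.29 with short bars, and PchiChr4G101020 and PchiChr4G101030 sit between 4.22 and 6.06 with SE of 1.67 to 2.04.

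Some lists of related chemistry held called genes. Of all tested genes 4.34% were called higher at day 1 and 4.09% at day 2, and 1.00% and 0.858% lower. Each list holds few tested genes, so a list with none called cannot be told apart from these shares. NADPH oxidases make superoxide at the cell wall, the substrate of superoxide dismutases. The table holds 5 of them, of which 3 were tested, and 2 of these rose at both days. Respiratory burst oxidase protein 1 (PchiChr3G092470) was at 14.6, 13.6 and 16.3 FPKM in CK, 77.0, 50.2 and 62.2 FPKM at day 1 and 59.6, 49.8 and 55.5 FPKM at day 2. Its log2 fold changes were 2.22 (SE 0.22, edgeR adjusted p = 0.00587) and 2.00 (SE 0.22, edgeR adjusted p = 0.00768). Protein 4a of the same family (PchiChr10G285320) went from 6.31 ± 2.67 FPKM in CK to 26.0 ± 4.27 FPKM at day 1 and 20.0 ± 9.52 FPKM at day 2 (SD, n = 3 per group; edgeR adjusted p = 0.0175 and 0.0328). Its day 2 call ended when any 1 of 7 of the libraries was left out or with library size as the only scaling (edgeR adjusted p of 0.0536 to 0.128), and its day 1 call when CK library 2 or 3 was, while the day 2 call of PchiChr3G092470 ended without CK library 1 (edgeR adjusted p = 0.0504).

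Amine and polyamine oxidases, which also release hydrogen peroxide, had 2 of 11 tested genes higher at each day. The shares of all tested genes were 4.34% and 4.09%. A flavin amine oxidase (PchiChr10G282430) went from 11.5 ± 0.726 FPKM in CK to 61.7 ± 4.90 FPKM at day 1 and 42.5 ± 19.9 FPKM at day 2 (SD, n = 3; edgeR adjusted p = 0.0142 and 0.0282). A primary amine oxidase (PchiChr2G052440) went from 5.64 ± 1.12 to 16.3 ± 4.54 and 14.5 ± 1.69 FPKM (edgeR adjusted p = 0.0237 and 0.0337). Leaving out any CK library ended the call of both genes at both days, with edgeR adjusted p of 0.0612 to 0.128. Their day 2 calls also ended without day 2 library 1 or 2, and that of PchiChr2G052440 without day 2 library 3 or day 1 library 1 (0.0527 to 0.0994). The day 1 call of PchiChr2G052440 also ended with only the CK and day 1 libraries in the fit (edgeR adjusted p = 0.0573). Their log2 fold changes with all libraries were 2.56 and 2.04 for PchiChr10G282430, and 1.69 and 1.50 for PchiChr2G052440.

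Superoxide dismutases, the activity attributed to several germin-like proteins, were abundant and none of 4 was called at either day. Their sum was 598 to 716 FPKM in CK and 508 to 745 FPKM in the treated libraries, with 545 FPKM in day 1 library 2. PchiChr7G219570, the member with the lowest adjusted p at both days, had log2 fold changes of -0.36 and -0.35 (SE 0.26, edgeR adjusted p = 0.399 and 0.424). The single catalase-named gene was at 2.52 FPKM in day 1 library 2 and at most 0.135 FPKM elsewhere. No other gene was named for oxalate.

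Laccases and ascorbate oxidases, copper enzymes of the cell wall, 25 in the table, summed to 2.81 to 7.39 FPKM in CK, 116 FPKM in day 1 library 2 and 4.91 to 19.8 FPKM in the other treated libraries. None of the 14 tested was called at either day by edgeR. The laccase-like PchiChr8G230760 was at 0.0281, 0 and 0 FPKM in CK, 1.08, 51.6 and 0.285 FPKM at day 1 and 2.22, 7.76 and 1.04 FPKM at day 2 (edgeR adjusted p = 0.0608 and 0.0982). Unlike the chromosome 7 germin-like copies it was thus present in every treated library. The list for other cupin-fold proteins held 9 genes, of which 6 are basic 7S globulins, proteins related to aspartic proteases and not cupins. Of 5 tested 1 rose at day 2, the basic 7S globulin PchiChr3G069380 (1.45 ± 1.41 FPKM in CK to 89.2 ± 69.0 FPKM, SD, n = 3, edgeR adjusted p = 0.0448), and that call ended when any 1 of 7 of the 9 libraries was left out (edgeR adjusted p of 0.0610 to 0.165).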

How the data were processed

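Leaf polyA RNA was sequenced in 9 libraries, 3 per group, grouped by the treatment labels and numbered by their titles. The submitters' processing notes name fastp, HISAT2 and HTSeq with no order or settings. Not given in the sources used here are the tool versions, genome build, annotation and strand setting. Per gene, the authors deposited estimated counts and FPKM. The deposited counts are whole numbers. Low counts were set against the counts that FPKM implies: in 100% of 212 cases the count exceeded the implied one by 0 to 1 (tolerance 0.05), as estimates rounded up would, and no change was made to them. FPKM was taken as the authors scaled it.

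The test of the counts was that of edgeR 4.0.16 (R 4.3.3), the two-sided quasi-likelihood test, after TMM scaling and filterByExpr (minimum count 10), in 1 fit of all libraries, with Benjamini-Hochberg adjustment over 22384 genes and a threshold of 0.05. Levels are FPKM. Alternatives used DESeq2 1.42.0 and limma 3.58.1 and are described at the end. The fits were also run on simulated counts with known changes, placed in genes with higher counts. That run does not cover genes as low as many members, nor a library that stands apart. Totals per library of 48893949 to 58703021 counts set the precision. Chromosome, block, start and end are as the table gives them. Runs allow at most 10 other genes between members. The members, lists and thresholds were chosen with earlier results of these data known. Genes set to be named were all chromosome 7 copies and members called or present in all libraries. Of each related list they were the 2 genes with the lowest adjusted p per day. Other members, neighbours and, for lists, genes beyond these were added after their values were seen. Of the chromosome 7 copies the text names only some and gives the rest by values in order, range or median. The search for NADPH oxidases at first took in carbohydrate enzymes by a chance match of letters, which were removed by name. No reference genome was used here, so no sequence is shown.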

Additional observations from a re-analysis of the deposited data

How the results depend on the processing

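The 0 germin-like genes called by edgeR at each comparison stayed at 0 in most alternatives. DESeq2 called 3 at day 1, 2 at day 2 and 3 for the mean of both days, limma voom with library weights called 1 at day 2 and 1 for the mean, and limma on log2(FPKM + 0.1) called 1 for the mean. With 1 library left out in turn the counts ran from 0 to 0 at day 1, from 0 to 1 at day 2 (without day 1 library 2) and from 0 to 0 for the other comparisons. That 1 call, with 12 members tested, was among 2893 calls over 22746 genes. Of all genes voom called 3055 at day 2 and 4942 for the mean, and limma on log2(FPKM + 0.1) called 2204 for the mean. The germin-like genes called were PchiChr10G277720, PchiChr4G101020 and PchiChr4G101030, and the cause was not tested. The weight of day 1 library 2 in the voom fit was 0.172, against 0.415 to 2.27 for the others. Members at 1 FPKM or more in all libraries numbered 2, and 6 at 0.1 FPKM or more, or 9 with a count above 0. The 3-fold form of the rule for day 1 library 2 took in no germin-like gene beyond the 38 of the 10-fold form, which meet it by definition.

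Over all genes the calls moved more: from 1196 to 3742 (DESeq2), 3032 (voom) and 534 (2 groups only) at day 1, from 1107 to 4012, 3055 and 1945 at day 2, from 0 to 72 (DESeq2) for day 2 against day 1, and from 1875 to 5074 and 4942 for the mean. With 1 library left out they ran from 134 to 1193 at day 1, 48 to 2893 at day 2 and 312 to 2682 for the mean. Whether the same numbers of the titles pair the libraries is not stated in the labels and was not settled. The correlations of deviations of same-numbered libraries ran from -0.123 to 0.307, and of other pairs from -0.333 to 0.151. Day 1 and day 2 libraries of the same number gave 0.307 (library 1), -0.0181 (library 2) and 0.262 (library 3). Not every library correlated best with its own number. With the replicate number as a block 0 germin-like genes were called in each comparison, and 747, 865, 0 and 1699 genes of all. With that block the adjusted p at day 2 was 0.0576 for PchiChr10G282430 and 0.0786 for PchiChr3G069380, both of which were called without the block. Among the member estimates 15 of 582 changed sign, none of them called. PchiChr5G131970 gave 0.11 (voom) and 0.07 (replicate block) at day 2, and with 1 library left out it ran from -0.97 to 1.08 at day 2, from -0.09 to 2.71 at day 1 and from -0.11 to 1.90 for the mean. With 1 library left out PchiChr8G224730 ran from -0.64 to 1.94 at day 2 and from -0.07 to 2.14 for the mean, PchiChr4G100880 from -0.11 to 0.69 and PchiChr4G100890 from -0.43 to 0.16 at day 2.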
